A study of Mus musculus with 2 samples.

Results

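Contacts between a promoter and a region that is no promoter were followed on the same chromosome over less than 1 Mb, in mouse embryonic stem cells (mESCs) with and without the DNA-binding protein Ronin (Thap11). A contact is a pair of RNA Pol II peaks, called anchors, joined by at least 1 paired-end tag (PET). Members were chosen by position: the anchor midpoints lay under 1 Mb apart, and 1 of the anchors, but not the other, lay within 2.5 kb of a transcription start site (TSS) of a protein-coding gene in GENCODE vM1 (mm9). This gave 2616 contacts, 802 in the Ronin knockout library and 1814 in the control library, out of 6665 contacts under 1 Mb, 17367 intrachromosomal contacts and 172595 contacts in all. In each member the anchor near a TSS is named here the promoter anchor and its partner the other anchor.

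RNA Pol II ChIA-PET, in which DNA fragments held together by cross-linked chromatin are pulled down with an antibody against RNA Pol II (clone 8WG16) and ligated, was carried out in mESCs derived from blastocysts of CreERT2 mice crossed with Ronin flox/flox mice. Ronin knockout cells had received tamoxifen for 4 days, which switches on the CreERT2 recombinase and removes the floxed Ronin gene, and control cells, which carry CreERT2 and the floxed Ronin alleles too, had received ethanol for 4 days. Both were grown with LIF on gelatine, and no tamoxifen-treated line without floxed alleles was analysed here. Each condition is 1 library into which the authors merged 2 experiments. Replicate spread is therefore unknown, and every interval and test below compares these 2 libraries and covers counting error only. The knockout and control libraries held 12140 and 24663 intrachromosomal PETs, and 53136 and 131434 interchromosomal PETs.

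Genes are switched on from promoters, and distal elements such as enhancers can lie far from the promoter they act on, inside introns of the gene, in a neighbouring gene or in intergenic DNA. RNA Pol II sits at active promoters, at many active enhancers and along transcribed genes, so a contact in this assay can join a promoter to an enhancer, to the body or 3′ end of a gene, or to any other site where RNA Pol II is found. Ronin is a THAP-domain zinc finger protein that binds promoters of housekeeping genes together with Hcfc1 and is needed for mESC self-renewal. A contact by itself does not show that the region regulates the gene.

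The sequences below are of 2 kinds. The first is the stretch that both anchors of a contact can have in common, shown here for the pairs of anchors with the most and the fourth most PETs (Haus8 and Myo9b on chromosome 8 with 372 knockout and 713 control PETs, Gdf15 on chromosome 8 with 82 knockout and 121 control PETs). The sequences were read from NCBIM37 (mm9), capitals mark the identical stretch, and lower case marks 15 bases on each side. The promoter anchor lines lie at chr8:73792448-73792653 and chr8:73152496-73152689 on the plus strand. The other anchor lines lie at chr8:74268694-74268899, printed from the minus strand, and at chr8:72510398-72510591 on the plus strand.

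Haus8 and Myo9b promoter anchor: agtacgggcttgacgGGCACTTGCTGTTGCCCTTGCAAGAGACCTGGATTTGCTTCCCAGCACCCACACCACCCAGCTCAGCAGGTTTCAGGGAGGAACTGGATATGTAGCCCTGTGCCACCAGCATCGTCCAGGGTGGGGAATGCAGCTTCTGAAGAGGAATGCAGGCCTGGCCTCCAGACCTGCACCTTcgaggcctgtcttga
Haus8 and Myo9b other anchor: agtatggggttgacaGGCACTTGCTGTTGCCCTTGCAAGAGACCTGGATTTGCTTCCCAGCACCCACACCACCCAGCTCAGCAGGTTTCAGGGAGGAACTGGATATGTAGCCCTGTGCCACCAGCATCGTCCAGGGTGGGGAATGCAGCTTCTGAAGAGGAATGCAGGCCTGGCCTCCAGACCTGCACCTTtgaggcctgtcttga
Gdf15 promoter anchor: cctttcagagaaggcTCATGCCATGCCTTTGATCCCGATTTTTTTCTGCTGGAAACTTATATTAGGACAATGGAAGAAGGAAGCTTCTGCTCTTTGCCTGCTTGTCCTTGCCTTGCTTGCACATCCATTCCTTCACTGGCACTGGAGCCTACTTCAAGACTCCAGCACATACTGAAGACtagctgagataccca
Gdf15 other anchor: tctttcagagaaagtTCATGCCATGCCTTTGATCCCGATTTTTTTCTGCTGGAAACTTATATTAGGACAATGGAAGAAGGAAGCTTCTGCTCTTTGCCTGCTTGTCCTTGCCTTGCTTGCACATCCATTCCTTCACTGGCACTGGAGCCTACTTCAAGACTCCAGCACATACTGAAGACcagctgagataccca

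The second kind is non-promoter DNA in contact with promoters of stem cell genes. The 4 genes Sox2, Klf4, Klf2 and Lifr each had a contact with the same region outside protein-coding genes in both libraries. The windows of 100 bases below come from the part of that region common to both libraries, run in the direction of the gene, and hold in capitals the sites TCAAGGTCA (bound by Esrrb) or ATGCAAAT (the octamer bound by Pou5f1) on either strand. The Sox2 windows lie at chr3:34655462-34655561, chr3:34656836-34656935 and chr3:34659450-34659549, the Klf4 window at chr4:55489251-55489350 and the Lifr window at chr15:7065835-7065934. They are the only matches to these sites in the shared regions of the 4 genes, and the Klf2 region, at chr8:74852873-74858188, held none. This Klf2 region adjoined the promoter anchor, which ended at chr8:74852623 in the knockout and 74852628 in the control library. A further site, GGGTGTGG (bound by Klf factors), was also searched. It had 2 matches in the Sox2 region, not printed here, and none in the regions of Klf4, Klf2 and Lifr.

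Sox2 other anchor, 107 kb from the TSS: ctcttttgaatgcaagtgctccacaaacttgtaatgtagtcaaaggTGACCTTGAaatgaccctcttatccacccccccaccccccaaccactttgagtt
Sox2 other anchor, 108 kb from the TSS: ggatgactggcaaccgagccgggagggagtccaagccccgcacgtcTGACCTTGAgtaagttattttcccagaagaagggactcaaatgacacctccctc
Sox2 other anchor, 111 kb from the TSS: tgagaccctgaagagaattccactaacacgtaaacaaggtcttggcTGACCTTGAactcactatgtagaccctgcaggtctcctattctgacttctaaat
Klf4 other anchor, 56 kb from the TSS: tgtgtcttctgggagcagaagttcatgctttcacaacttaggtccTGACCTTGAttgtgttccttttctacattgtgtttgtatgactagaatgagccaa
Lifr other anchor, -13.7 kb from the TSS: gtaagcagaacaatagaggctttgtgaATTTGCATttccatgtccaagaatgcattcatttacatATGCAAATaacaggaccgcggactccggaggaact

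Of all windows of 100 bases in the other anchors, 0.344% in the knockout library and 0.348% in the control library held TCAAGGTCA on either strand, against 0.315% and 0.309% in the promoter anchors. The octamer was found in 0.537% and 0.559% of windows of the other anchors, against 0.463% and 0.469% in the promoter anchors. For GGGTGTGG the shares were 0.960% and 0.902% in the other anchors, against 0.870% and 0.799% in the promoter anchors, and none of these differences was tested. The Ronin-binding motif, searched as CTGGGA followed after 2 bases by TGTAGT on either strand, was found in 4 of 745 other anchors in the knockout library and 15 of 1624 in the control library, against 33 of 721 and 58 of 1524 promoter anchors, which were longer. Per window of 100 bases it was present in 0.00787% and 0.0117% of the other anchors and in 0.020% and 0.0189% of the promoter anchors. The other anchors held 11.9 CpG per kb in the knockout and 11.4 in the control library, against 15.3 and 15.1 in the promoter anchors, with nearly the same GC content (44.9% and 44.5% against 45.3% and 45.0%). The median other anchor was 4.59 kb wide in the knockout and 4.85 kb in the control library, and the median promoter anchor 16.3 and 16.2 kb.

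Marker genes of the labelled cell type and of other cell types were both among the genes contacted. Of 47 annotated pluripotency and ESC identity genes, 9 in the knockout and 14 in the control library (19.1% and 29.8%) had a promoter in at least 1 member contact, against 4.79% and 9.52% of all protein-coding genes. None of 12 fibroblast markers had a member contact in either library. Of 12 primitive endoderm markers, 2 were contacted in each library (16.7%, Col4a1 and Col4a2). This came from 1 contact of 1 PET in the knockout and 2 contacts with 2 PETs in the control library. Of 7 trophectoderm markers, 0 were contacted in the knockout and 2 (28.6%, Krt8 and Krt18) in the control library, and of 9 early germ layer markers 0 and 1 (Nes). These shares rest on few genes, were not tested, and do not set the stem cell genes apart from the other lists. Contacts are not expression, and the files hold no measure of the Ronin protein, so the knockout itself was not checked with them. The Thap11 promoter anchor had 0 member contacts in the knockout and 1 in the control library.

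The knockout library held fewer promoter to non-promoter contacts than the control library. Its 802 contacts came to 44.2% of the 1814 in control (95% interval 40.6 to 48.1%), and its 1912 PETs to 50% of the 3824 in control (47.3 to 52.8%). The whole libraries differed as well. All intrachromosomal contacts numbered 5037 in the knockout and 12330 in the control library, and their PETs 12140 and 24663. No ratio here is scaled for this depth, so a ratio below 100% does not show a loss particular to promoter to non-promoter contacts. Contacts of other kinds under 1 Mb were also fewer. Promoter to promoter contacts numbered 1033 in the knockout and 2026 in the control library, which is 51.0% (47.3 to 55.0%), and contacts with no promoter numbered 311 and 679, which is 45.8% (39.9 to 52.5%). Members made up 37.4% of all contacts under 1 Mb in the knockout and 40.1% in the control library, an odds ratio of 0.89 (0.799 to 0.990, p = 0.0317, two-sided Fisher's exact test). The call was lost with a promoter window of 1 kb (p = 0.0748) or 5 kb (p = 0.0575), without pairs that share an identical stretch of 100 bp (p = 0.0858), with only the 5′ end of each gene as TSS (p = 0.508) and for contacts of at least 2 PETs (p = 0.407), all by Fisher's exact test.

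**Figure D1:**
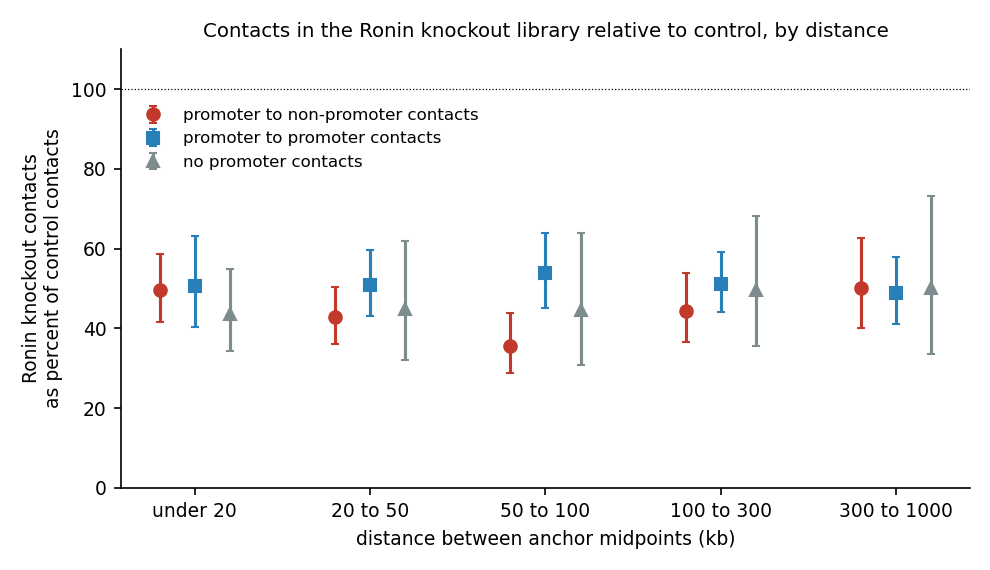
Contacts in the Ronin knockout library as percent of control contacts (vertical axis, with 95% exact binomial intervals for counting error) in 5 classes of distance between anchor midpoints in kb (horizontal axis), for promoter to non-promoter contacts (circles), promoter to promoter contacts (squares) and contacts without a promoter (triangles), with 100% dotted. The ratios are not scaled for the depth of the libraries, and every point lies below 100%. For promoter to non-promoter contacts the values run between 35.7% at 50 to 100 kb and 50.2% at 300 to 1000 kb.

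The distance between the anchors was similar in both libraries. The median was 48.6 kb in the knockout and 52.2 kb in the control library, and the middle 50% of contacts ran from 20 to 157 kb and from 21.9 to 156 kb. Distances of contacts are between anchor midpoints here and below, so the edges of wide anchors lie closer. Between inner edges the median gap was 31.5 kb in the knockout and 35.6 kb in the control library. The smallest gap was 2 bp in the knockout and 4 bp in the control library, so some anchors adjoin. By distance, the knockout library held 201 contacts under 20 kb against 406 in control, which is 49.5% (41.6 to 58.8%). It held 203 against 475 at 20 to 50 kb, 123 against 345 at 50 to 100 kb, 154 against 347 at 100 to 300 kb, and 121 against 241 at 300 to 1000 kb. The lowest ratio was 35.7% (28.8 to 43.9%) at 50 to 100 kb, where promoter to promoter contacts stood at 53.8% (45.0 to 64.0%). The plot of ratios by distance shows these values side by side, and the difference between classes was not tested. The last members inside the limit were 991 kb apart in the knockout and 998 kb in the control library, and the first contacts beyond it 1003 and 1001 kb. On the other threshold, 134 knockout and 311 control contacts (16.7% and 17.1%) had an other anchor within 5 kb of a TSS.

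Most members rested on 1 PET, in both libraries. Of the contacts, 91.0% in the knockout and 90.8% in the control library had 1 PET, 72 and 167 had at least 2, and 45 and 71 at least 3. The PETs were concentrated: the 5 contacts with the most PETs held 36.2% of all member PETs in the knockout and 32.9% in the control library. Promoters of 1065 genes were contacted in the knockout and of 2116 in the control library, and 440 genes were contacted in both, which is 41.3% of the knockout and 20.8% of the control genes.

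An other anchor was counted as in a gene where it overlapped the gene by at least 1 bp, with the own gene given precedence. The edges of a peak can therefore change its class. Located by the midpoint of the other anchor, the odds ratio of the share outside was 1.06 (adjusted p = 0.886, Fisher's exact test). By overlap, the other anchor lay outside protein-coding genes more often than in any 1 of the other classes. In the knockout library it lay outside in 343 contacts (42.8%), in a gene other than that of the promoter in 246 (30.7%), and in the gene of the promoter itself in 213 (26.6%). In the control library these were 708 (39.0%), 589 (32.5%) and 517 (28.5%). Contacts with an other anchor outside genes stood at 48.4% of control (42.5 to 55.2%), those in another gene at 41.8% (35.8 to 48.5%), and those in the own gene at 41.2% (35.0 to 48.4%). None of the 3 shares differed between the libraries past an adjusted p of 0.05. The odds ratio of the share outside was 1.17 (0.982 to 1.39, adjusted p = 0.305), of the share in another gene 0.92 (0.765 to 1.1, adjusted p = 0.517) and of the share in the own gene 0.907 (0.748 to 1.1, adjusted p = 0.517, two-sided Fisher's exact tests adjusted by Benjamini-Hochberg over 4 comparisons). For contacts of at least 20 kb the share outside was higher in the knockout library (odds ratio 1.31, adjusted p = 0.0275, Fisher's exact test), and with members sharing a stretch of 50 bp also left out the value was 1.18 (adjusted p = 0.560).

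**Figure D2:**
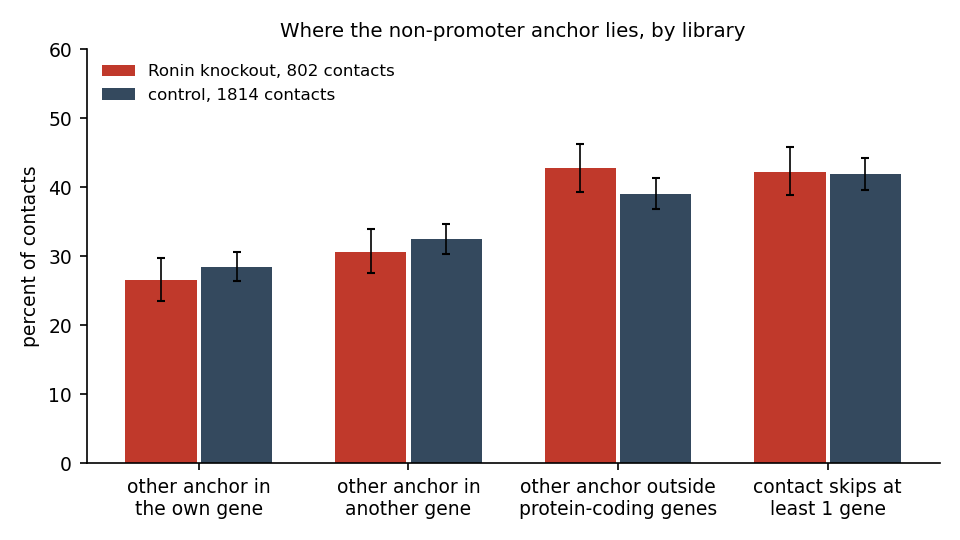
Percent of promoter to non-promoter contacts (vertical axis, from 0, with exact Clopper-Pearson 95% intervals) whose other anchor lay in the own gene, in another gene or outside protein-coding genes, or that skipped at least 1 gene, in the Ronin knockout library (802 contacts, left bars) and the control library (1814 contacts, right bars). The bars outside genes stand at 42.8% and 39.0% with overlapping intervals, and the bars for skipped genes at 42.3% and 41.9%.

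Contacts inside the own gene were short. Their median distance was 17.8 kb in the knockout and 21.8 kb in the control library, against 113 and 119 kb for an other anchor in another gene and 64.7 and 64.0 kb for one outside genes. Of contacts under 20 kb, 58.7% in the knockout and 58.6% in the control library stayed in the own gene, and at 100 to 300 kb 2.60% and 5.19% did. Among those in the own gene, 52 of 213 in the knockout and 147 of 517 in the control library (24.4% and 28.4%) had the other anchor within 2.5 kb of the 3′ end of the gene. Over all members, 60 and 179 contacts (7.48% and 9.87%) reached the 3′ end of the own gene, inside or just past it, an odds ratio of 0.739 (0.535 to 1.01, unadjusted p = 0.0555, two-sided Fisher's exact test). Zfp42 (Rex1, a marker of undifferentiated mESCs) is an example, with 1 knockout PET to a region 3.65 to 13.8 kb downstream of its TSS, over the 3′ end of the gene, and no control contact.

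Where the promoter anchor held genes of 1 strand only, the other anchor lay downstream of the TSS in 352 of 631 knockout contacts (55.8%) and 775 of 1406 control contacts (55.1%). When contacts inside the own gene were set aside, the downstream share was 43.8% and 40.9%. Outside protein-coding genes, 76 of 343 knockout and 147 of 708 control anchors (22.2% and 20.8%) lay over an annotated non-coding gene. Over all members, lincRNA genes lay under 47 and 100 other anchors, snoRNA genes under 16 and 26, snRNA genes under 11 and 28, and miRNA genes under 12 and 16.

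The nearest TSS was often not that of the contacted gene. It belonged to the promoter anchor in 351 of 802 knockout contacts (43.8%) and 778 of 1814 control contacts (42.9%, odds ratio 1.04, 0.873 to 1.23, p = 0.70, two-sided Fisher's exact test). Skipped genes can include the gene that holds the other anchor, and how often they did was not measured. A contact was counted as skipping a gene where a TSS of another protein-coding gene lay between the inner edges of its anchors. This held for 339 knockout contacts (42.3%, 38.8 to 45.8%) and 760 control contacts (41.9%, 39.6 to 44.2%), an odds ratio of 1.02 (0.855 to 1.21, adjusted p = 0.864, two-sided Fisher's exact test). Of these, 104 and 230 skipped 1 gene, 117 and 270 skipped 2 to 4, 72 and 132 skipped 5 to 9, and 46 and 128 skipped 10 or more. Skipping followed distance: contacts that skipped a gene had a median distance of 187 kb in the knockout and 191 kb in the control library, against 23.9 and 25.3 kb for those that did not. Under 20 kb, 6 of 201 knockout and 4 of 406 control contacts skipped a gene, and at 300 to 1000 kb 118 of 121 and 237 of 241 did.

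Most skipped genes lay near an anchor themselves. Of the 1593 genes skipped in the knockout and 3069 in the control library, 995 (62.5%) and 2154 (70.2%) lay within 2.5 kb of an anchor of some contact of the same library. Over all protein-coding genes the shares were 47.4% and 52.5%.

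Among contacts of at least 2 PETs, the share that skipped a gene was higher in the knockout library. It was 41 of 72 (56.9%, 44.7 to 68.6%) in the knockout and 52 of 167 (31.1%, 24.2 to 38.8%) in the control library, an odds ratio of 2.91 (1.59 to 5.39, adjusted p = 0.00108, two-sided Fisher's exact test). At 3 PETs or more the odds ratio was 2.53 (1.09 to 6.08) and did not pass the threshold (adjusted p = 0.0880, Fisher's exact test). Among contacts of 1 PET the share that skipped a gene was 40.8% in the knockout and 43.0% in the control library. The contacts of at least 2 PETs also differed in distance, with medians of 71.6 kb in the knockout and 44.0 kb in the control library, and in shared sequence. Without contacts that share 100 bp the shares were 23 of 48 and 35 of 140 (odds ratio 2.74, adjusted p = 0.0157), and without those that share 50 bp they were 7 of 23 and 15 of 71 (odds ratio 1.62, 0.476 to 5.19, adjusted p = 1.0, Fisher's exact tests).

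Identical sequence in both anchors went with high PET counts. The longest identical stretch reached 100 bp in 1.64% of knockout and 0.911% of control contacts of 1 PET, in 43.5% and 22.2% of those of 3 to 9 PETs, and in 50% and 50% of those of 10 or more PETs. At 50 bp the shares were 21.8% and 19.9% for 1 PET and 81.8% and 76.9% for 10 or more. The 36 knockout and 42 control contacts that share 100 bp held 883 and 1469 PETs, which is 46.2% and 38.4% of all member PETs. Without them 1029 PETs remained in the knockout and 2355 in the control library, a ratio of 43.7% (40.6 to 47.0%). The part of the shared sequence in these PET counts was not tested.

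**Figure D3:**
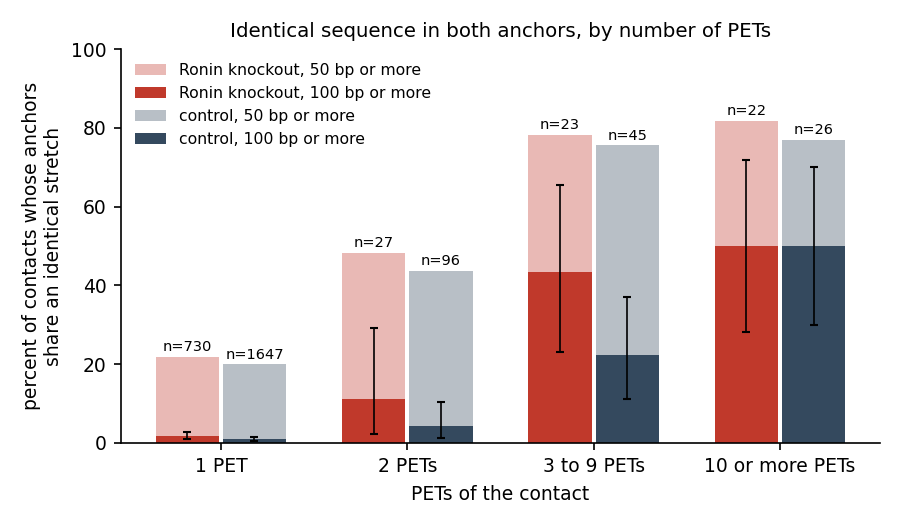
Percent of promoter to non-promoter contacts (vertical axis, from 0) with a stretch of 50 bp or more (pale bars) or 100 bp or more that is identical in both anchors (full bars, with exact Clopper-Pearson 95% intervals), by the number of PETs of the contact (horizontal axis), in the Ronin knockout library (left bars) and the control library (right bars), with the number of contacts above. The pale bars stand at 21.8% and 19.9% for 1 PET and at 81.8% and 76.9% for 10 or more PETs.

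The pair with the most PETs joined the shared promoter anchor of Haus8, a subunit of the augmin complex of the mitotic spindle, and Myo9b, an unconventional myosin, to intergenic DNA at chr8:74265047-74268903. It had 372 PETs in the knockout and 713 in the control library, spanned 471 kb and skipped 26 genes from Use1 to Fcho1, among them the kinase gene Jak3. The identical stretch of 176 bp printed above lay near the start of the promoter anchor and near the end of the other anchor, in opposite orientation. These were its 2 copies in the whole genome. An anchor next to it, at chr8:74268905-74269897 and without such a stretch, was joined to the same promoter by 9 knockout and 19 control PETs.

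Gdf15, a stress-induced hormone of the TGF-β family, came next among the contacts that skip many genes. Its promoter anchor was joined over 642 kb to a region in Gatad2a, a subunit of the NuRD chromatin remodelling complex, by 82 knockout and 121 control PETs. The contact passed the TSSs of 33 genes, that of Gatad2a itself among them. The 164 bp stretch of this pair also had 2 copies in the genome, 1 in each anchor. Mid1, a microtubule-associated ubiquitin ligase on chromosome X, had 169 knockout and 283 control PETs to its own gene body over 19.9 kb, with a shared stretch of 238 bp. Rdm1 had 38 and 70 PETs to a region 8.32 kb away between midpoints that holds a copy of the gene for U2, the spliceosomal snRNA. Its anchors share a stretch of at least 187 bp. For Mid1 and Rdm1 the 2 anchors almost touched. In control, the promoter anchor of Rdm1 ended at chr11:101507112 and the other began at 101507176. That of Mid1 ended at chrX:166439729 and the other began at 166439946. None of these 4 pairs passed the per-pair test.

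On chromosome 4, 4 of the 10 pairs with the most PETs joined predicted genes to each other or to non-coding DNA. Gm13051 had 19 and 33 PETs to a non-coding region at chr4:146604970-146619034. Its merged pair with a region in Gm13247 held 78 knockout and 153 control PETs, but only 0 and 1 of these came from member contacts, the rest being contacts of another kind. Gm13247 was joined to the same non-coding region by 50 knockout and 74 control PETs over 929 kb (50 and 72 in member contacts). Gm13151 was joined by 32 knockout and 62 control PETs to a region whose control anchor overlapped Gm13154. The knockout anchor of that region lay outside protein-coding genes.

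Klhdc4 and Gtl3, the last of the 10 pairs, had no shared stretch of 50 bp. Klhdc4, which codes for a kelch-repeat protein, had 26 knockout and 41 control PETs to a region in Gm20388 over 14.8 kb, which is 63.4% of control (37.2 to 106%). The TSS nearest to that region was that of Klhdc4, 11.5 kb away. An anchor at chr8:125393317-125444150 overlapped Gm20388 as well, so this annotation is long. Gtl3 had 24 and 30 PETs to intergenic DNA 18.1 kb downstream, which is 80% of control (44.8 to 142%). Neither pair passed the test against the ratio of all intrachromosomal PETs (adjusted p = 0.498 and 0.203, exact binomial test over all pairs). With pairs that share 100 bp left out, the knockout share of those PETs was 28.8% instead of 33.0%. Results of single pairs against that lower share are not given.

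The per-pair test set the knockout share of PETs of each pair, with anchors of both libraries merged where they overlap by 1 bp, against the knockout share of all intrachromosomal PETs, 33.0%. The 2616 contacts made 2350 member pairs, of which 161 had PETs in both libraries, 582 in the knockout alone and 1607 in control alone, and 121 contacts fell inside 1 merged region and were left out. Of these pairs, 60 had the 5 PETs needed for the test. The test called 4 lower and 7 higher in the knockout library (exact two-sided binomial test, Benjamini-Hochberg adjusted p under 0.05 over all pairs tested). That is 6.67% and 11.7% of the member pairs tested, against 12.0% lower and 15.8% higher among all 259 intrachromosomal pairs tested. At an unadjusted p under 0.05 there were 4 lower and 12 higher. With an equal share of PETs as the null the test called 15 lower and 6 higher, and with the share of the library totals 9 and 6. Without pairs that share 100 bp the null share was 28.8%, and of 40 member pairs the test called 2 lower and 10 higher.

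Among the 4 lower pairs, 3 had both anchors overlapped by anchors of knockout contacts, which for Hspa14 include its own contact of 4 PETs. Tmco7 and a region inside Cdh1, the gene for the adhesion molecule E-cadherin, were joined by 0 knockout and 43 control PETs over 11.4 kb (adjusted p = 7.76e-07, exact test), which allows at most 8.96% of control. Hvcn1, a voltage-gated proton channel gene, had 0 knockout and 34 control PETs to intergenic DNA 16.2 kb away (adjusted p = 1.60e-05, exact test). Hspa14, a chaperone of the Hsp70 family, had 4 and 29 PETs to intergenic DNA 8.59 kb away, which is 13.8% of control (3.52 to 39.3%, adjusted p = 0.0349, exact test). The anchors of Hvcn1 share a repeated stretch of 59 bp that has 5630 copies in the genome, and those of Tmco7 and Hspa14 share no stretch of 50 bp.

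Of the 7 higher pairs, 6 had a shared stretch of at least 75 bp. The pair without one joined an anchor over the promoters of Thoc6 (a subunit of the THO complex of mRNA export), Hcfc1r1, Tnfrsf12a, Cldn6 and Cldn9 to intergenic DNA at chr17:23829216-23832862, with 16 knockout and 0 control PETs (adjusted p = 2.54e-07, exact test). Both anchors were present in control contacts. On chromosome 13, Gm6901 had 28 knockout and 0 control PETs, 2410141K09Rik had 28 and 0 to 1 region and 9 and 0 to another, and 4930441O14Rik had 5 and 0. Gm9631 on chromosome 11 had 15 and 0 PETs and Gm7221 on chromosome 7 had 12 and 0. In 5 of these 6 pairs at least 1 anchor overlapped no anchor of any control contact, and for Gm9631 and Gm7221 the control library held 48 and 20 PETs between anchors within 5 kb of those of the pair. A count of 0 for a pair was therefore not in every case a lack of PETs between the 2 neighbourhoods.

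**Figure D4:**
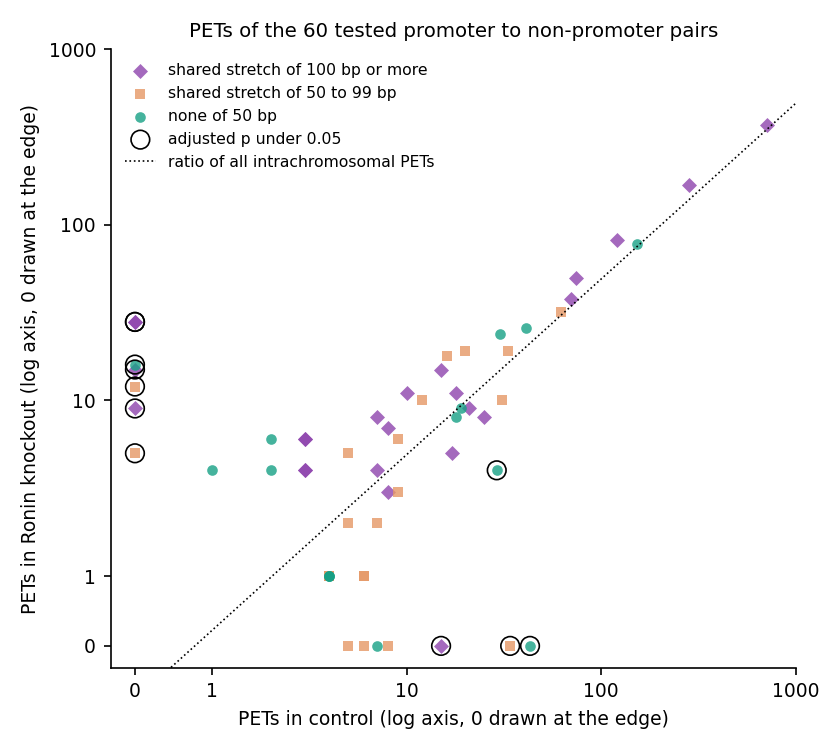
PETs in the Ronin knockout library (vertical log axis) against PETs in the control library (horizontal log axis) for the 60 tested promoter to non-promoter pairs, with 0 drawn at the edge of each axis, symbols for the longest identical stretch shared by the anchors, and rings for an adjusted p under 0.05. Pairs with many PETs in both libraries lie near the dotted line, which is the ratio of all intrachromosomal PETs, and 10 of the 11 ringed pairs have 0 PETs in 1 library.

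Contacts seen in one library were mostly not seen in the other. Of the 802 knockout contacts, 161 (20.1%, 17.4 to 23.0%) had a control contact that overlapped both anchors, and of the 1814 control contacts 155 (8.54%, 7.30 to 9.93%) had a knockout contact that did. The other anchor of the contact was itself an anchor of some contact in the other library for 716 of the knockout and 1230 of the control contacts (89.3% and 67.8%). The share was higher for contacts of more PETs: 15.5% and 5.22% of contacts of 1 PET were found again, 48.1% and 24.0% of those of 2 PETs, and 77.8% and 64.8% of those of 3 or more. Among contacts of 3 or more PETs without a shared stretch of 100 bp, 18 of 24 knockout and 27 of 48 control contacts were found again. A contact listed in 1 library is not shown by this to be absent from the other.

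Among pairs in both libraries without a shared stretch of 50 bp, chosen after their values were seen, several contacts tied a gene to a nearby distal site. Lmbrd1, which is needed for cobalamin transport out of the lysosome, had 8 knockout and 18 control PETs to its own gene body over 52.2 kb. Ezr, which links the cell membrane to actin, had 2 and 1 PETs to intergenic DNA 46.3 kb away, and Igfbp2, an IGF-binding protein gene, had 1 and 2 PETs to intergenic DNA 24.6 kb away. Phf17 and Sclt1 shared an anchor with 1 and 4 PETs to a region 115 kb away, and Gsta4 had 1 and 4 PETs to a region in the kinase gene Ick that also holds a 7SK RNA gene. The pairs of Lmbrd1, Phf17 and Gsta4 had an adjusted p of 1.0 (exact binomial test), and those of Ezr and Igfbp2 had too few PETs to test.

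The 47 identity genes had 12 knockout contacts with 14 PETs and 20 control contacts with 24 PETs, and the other anchor lay outside protein-coding genes in 9 of 12 and 12 of 20, some of them over non-coding genes. Over all members that share was 42.8% and 39.0%, and the difference was not tested. None of these contacts shared a stretch of 100 bp. Their median distance was 28.2 kb in the knockout and 37.2 kb in the control library.

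Sox2, a core transcription factor of mESCs, was joined to intergenic DNA downstream of the gene by 1 knockout and 2 control PETs. The knockout anchor ran from 101 to 118 kb and the control anchor from 101 to 120 kb past the TSS, the area known for a distal enhancer cluster of Sox2 in mESCs, and no gene was skipped. The 3 Esrrb sites printed above lie in this anchor, 107, 108 and 111 kb past the TSS. Klf4 had 1 PET in each library to a region 48.4 to 62.8 kb past its TSS, 1 further knockout PET to a region at 16.1 to 18.0 kb and 1 further control PET to a region at 62.9 to 73.0 kb. Klf2 had 1 knockout and 2 control PETs to a region 9.94 to 15.3 kb past its TSS, and both libraries joined it to separate regions in Eps15l1 by 1 PET each. Lifr, a subunit of the LIF receptor through which the culture medium acts, had 1 PET in each library to a region that reached 18.2 kb upstream in the knockout and 19.0 kb in the control library, where the paired octamers printed above lie 13.7 kb upstream.

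Jarid2, a subunit of PRC2, was also contacted in both libraries, with 2 contacts in each and 2 knockout and 3 control PETs, among them 1 contact in each library to its own gene. The remaining identity genes were contacted in 1 library only. Mycn, a MYC-family transcription factor, had 3 knockout PETs to a lincRNA locus (Gm17337) 148 to 163 kb past its TSS and none in control. Pou5f1 (Oct4) had 1 knockout PET to a region 14.4 to 22.0 kb upstream of its 5′ end and no control contact. The promoter anchor of that contact, at chr17:35647572-35657356, began downstream of the 5′ end at 35642982. Sall4 had 1 knockout PET. In the control library alone, Nanog had 1 PET to a region 11.4 to 13.7 kb upstream and 1 to a region 98.9 to 107 kb downstream past Slc2a3, and Klf5 had 2 PETs to a region 37.8 to 43.2 kb downstream. Tdgf1, Nr5a2, Dnmt3l, Stat3, Smad7 and Tet2 had 1 control PET each, and Etv5 had 2 control contacts. With 1 to 3 PETs per contact, none of these differences could be tested.

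**Figure D5:**
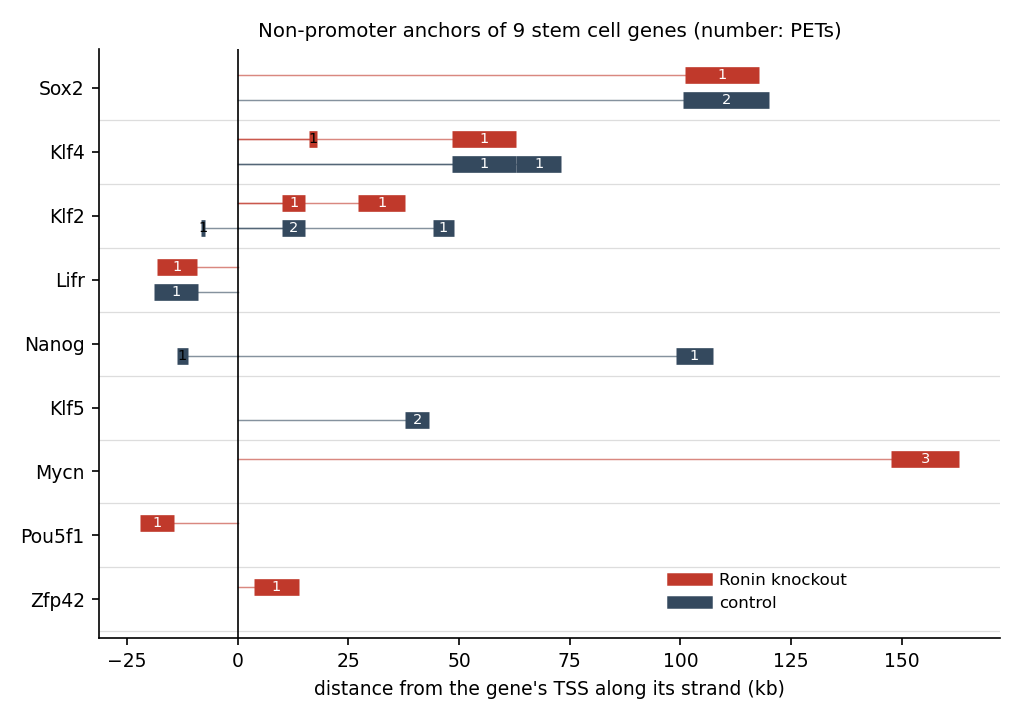
Position of the other anchor (bars) relative to the TSS along the strand of the gene in kb (horizontal axis) for 9 stem cell genes, in the Ronin knockout library (upper rows) and the control library (lower rows), with the number of PETs in or on each bar and a thin line to the TSS. Sox2, Klf4, Klf2 and Lifr have bars at the same place in both libraries, with 1 or 2 PETs each, and the other 5 genes have bars in 1 library. The TSS drawn is the 5′ end of the gene, which the promoter anchor of Pou5f1 did not reach.

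Housekeeping lists are given by the number of their genes with a promoter in a member contact and by their contacts. These lists were chosen with earlier results known, and an anchor can hold promoters of several genes, so each number is a description. Of 82 genes for cytosolic ribosomal proteins, 13 were contacted in the knockout and 18 in the control library, with 13 and 20 contacts. Rpl7l1 had 0 and 4 PETs, and Rpl23 and Rpl36 1 and 1. Of 73 mitochondrial ribosome genes 9 and 12 were contacted, in 10 and 12 contacts, with 2 and 0 PETs at Mrpl33 and 0 and 2 at Mrpl15. Of 48 proteasome subunit genes 9 and 15 were contacted (18.8% and 31.2%), in 11 and 19 contacts, led by Psmb1 with 3 and 2 PETs. Of 91 oxidative phosphorylation genes 10 and 16 were contacted, in 11 and 22 contacts, with 1 and 3 PETs at Atp5b and 0 and 3 at Sdha.

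Of 37 aminoacyl-tRNA synthetase genes, which load amino acids onto tRNAs, 4 in the knockout and 10 in the control library were contacted, in 5 and 14 contacts. Qars had 2 and 3 PETs, Cars 0 and 3, Farsa 0 and 2 and Aars 0 and 1. Of 74 splicing factor genes 12 and 21 were contacted (16.2% and 28.4%), in 12 and 29 contacts, with 1 and 4 PETs at Hnrnpa3, 1 and 3 at Hnrnpa2b1, 1 and 3 at Hnrnpm and 0 and 2 at Hnrnpa0. Of 66 translation factor genes 11 were contacted in each library, in 13 and 12 contacts, with 3 and 3 PETs at Eef1a1. Of 9 genes for Ronin, its cofactors and relatives, 1 and 3 were contacted, in 1 and 6 contacts, of which Zfp143, a zinc finger activator of similar promoters, had 0 knockout and 4 control contacts, 3 of them in its own gene. Every list with a contact, apart from translation factors, had fewer contacts in the knockout library, as had all members together, and no list was tested.

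Many histone and zinc finger genes lie in clusters, and whether their contacts do was not measured. Of 67 replication-dependent histone genes, 27 in each library had a promoter in a member contact, through 5 knockout and 6 control contacts only, because 1 anchor covers several genes. Hist1h2bh, Hist1h3f, Hist1h1d and Hist1h3e had 2 contacts with 3 PETs each in the knockout library, against 1 PET at Hist1h2bh and Hist1h3f and 0 at Hist1h1d and Hist1h3e in control. Of the zinc finger genes on the list, 27 and 50 were contacted, in 35 and 67 contacts with 64 and 133 PETs, and 7 and 10 of these contacts shared a stretch of 100 bp. Zfp808 had 16 and 25 PETs, Zfp935 9 and 22, and Zfp936 11 and 10.

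Promoter anchors were also ranked by their number of non-promoter partners. In the knockout library those of Gm13151 and Zfp808 had 4 non-promoter partners each, and those of 2410141K09Rik, Gm7221, Tex14 and 5430403G16Rik had 3. In the control library Zfp808 had 6 partners, the joint anchor of Rad51c and Tex14 had 5, and those of Gm13151, Slc20a1, Klf9 and Tcf7l1 had 4. Slc20a1, a phosphate transporter gene, and the transcription factor genes Klf9 and Tcf7l1 had no partner that shares 100 bp, and their anchors had 1, 2 and 2 partners in the knockout library. Tcf7l1 codes for a Wnt-pathway repressor that acts on pluripotency genes.

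Some other anchors met several promoters. In the knockout library an intergenic anchor at chr5:110249340-110276565 met 5 promoter anchors, 2 of them with a shared stretch of 100 bp, and the non-coding region on chromosome 4 named above met 3. An anchor in Zmynd8, one in Tsks and Cpt1c and one over Mir143 and Mir145 met 3 each with 1 PET per contact. In the control library 5 other anchors met 4 promoter anchors each. One of them, in Frmd8, covers the nuclear long non-coding RNAs Malat1 and Neat1 and also overlapped contacts with 4 promoter anchors in the knockout library. Another, in Trnau1ap, covers the snoRNA host gene Snhg12, and one in Ankrd11 and Gm20388 met promoters of Galns, Trappc2l, Cdt1 and Aprt among others. The remaining 2 lay outside protein-coding genes, near H2-Bl on chromosome 17 and on chromosome 7 within reach of Sema4b and Zfp710.

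The genes skipped most often lay on chromosomes 5, 13 and 17. In the knockout library 4930522L14Rik was skipped by 6 contacts, against 3 in the control library, and Vmn2r-ps105 by 5, against 2. Zfp934 was skipped by 4 knockout and 6 control contacts, and Gm17352 and Gm3604 by 4 and 5 each. In the control library 6720489N17Rik was skipped by 5 contacts, against 3 in the knockout, and RP23-108F2.4 by 5, against 2. Of these 7 genes only 4930522L14Rik lay in an anchor of any contact.

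Apart from Gdf15 and Haus8 with Myo9b, the members of at least 2 PETs that skipped most genes were contacts of Ercc1, Apoc1, Ccdc71 and 4921524J17Rik. Ercc1, a DNA repair endonuclease gene, had 1 knockout PET over 563 kb and 2 control PETs over 562 kb to a region in Pvr. These passed the TSSs of 31 genes, that of Pvr itself among them. The joint anchor of Apoc1, Apoe and Tomm40 had 2 control PETs over 381 kb past 21 genes. Ccdc71 had 2 knockout PETs over 170 kb to a region in Arih2 past 9 genes, and 4921524J17Rik had 11 knockout PETs over 428 kb to a region in Hook2 past 15 genes, against 18 control PETs (adjusted p = 0.766, exact binomial test), with a shared stretch of 149 bp.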

How the data were processed

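RNA Pol II ChIA-PET of Ronin knockout and control mESCs was analysed from the deposited lists of contacts, 1 per condition, each merged from 2 experiments. The authors trimmed linkers with cutadapt, mapped the mates separately to mm9 with Bowtie 1.1.1, collapsed duplicates, called peaks with MACS 1.4.2, dropped PETs that span under 4 kb on 1 chromosome, and counted the remainder for each pair of peaks. The paper takes as high-confidence interactions pairs of sites with 3 independent PETs, which only 45 knockout and 71 control members reach. Members here include all listed contacts, down to 1 PET. The deposited PET counts are raw counts, not scaled for depth. The deposited p-values are hypergeometric, per pair and library, and were used only as a filter in 1 alternative. The distance score the authors give was replaced by distances between midpoints.

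TSSs came from GENCODE vM1, with 22380 protein-coding genes. Ratios have exact conditional binomial intervals, shares have exact Clopper-Pearson intervals at 95%, shares were compared by Fisher's exact test, and merged pairs with at least 5 PETs were tested by exact binomial tests, adjusted by Benjamini-Hochberg over all such pairs. PETs carry no molecular identifiers and contacts share anchors, so intervals cover counting error only. Sequence came from NCBIM37. Python 3.11.15, numpy 2.4.6, pandas 2.3.3, scipy 1.17.1, pysam 0.24.0 and matplotlib 3.10.9 were used, and the pair test was tested on simulated data.

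Named were the 10 pairs with the most PETs, pairs past the test, the 6 promoter anchors and 5 other anchors with the most partners, the 5 members of at least 2 PETs that skip most genes, the genes skipped most often, up to 4 genes of each list by PETs, and contacts of stem cell genes and of Ronin and its cofactors. Members and lists were chosen with earlier results of these data known. Alternatives varied the PETs required, promoter window, TSS set, distance, location rule, overlap, null share and shared sequence. 1 called pair and 1 list gene are not reported here.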

Additional observations from a re-analysis of the deposited data

How the results depend on the processing

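Knockout contacts stayed at 42.7 to 63.4% of control and knockout PETs at 42.7 to 56.8% under every alternative run for them. The odds ratio of the member share lost its call at 2 PETs (0.862), 3 PETs (0.965), a promoter window of 1 kb (0.909) or 5 kb (0.90), 5′ ends only (0.965) and without pairs that share 100 bp (0.908). The share in another gene turned to 1.08 at 2 PETs and that in the own gene to 1.04 without members that share 50 bp, neither past the threshold. The share outside genes passed it from 20 kb on (1.31). The share that skips a gene passed it at 2 PETs (2.91), also without pairs that share 100 bp (2.74), but not at 3 PETs (2.53, adjusted p = 0.0880, Fisher's exact test), and fell below 1 over all contacts with a window of 5 kb (0.944), 5′ ends only (0.965), without 100 bp stretches (0.976) and without 50 bp stretches (0.955). Control members found again came to 22.8% at 2 PETs, 46.5% at 3 PETs, 16.6% with anchors extended by 5 kb and 4.53% without 50 bp stretches. Pairs lower in the knockout numbered 15 with an equal null share, 9 with the share of library totals and 9 with a window of 5 kb. They numbered 2 with no minimum of PETs, without 100 bp stretches or without 50 bp stretches. Pairs higher in the knockout numbered 6 with no minimum of PETs, 10 without 100 bp stretches and 2 without 50 bp stretches. Apart from alternatives that leave fewer contacts by construction, the cause was not tested. Leaving out 50 bp stretches, alone or with another choice, was chosen after seeing the data. No paired analysis was possible because each condition has 1 merged library. With 1 PET behind most contacts, depth limits every statement on a single contact.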
